A study of Mus musculus with 16 samples.

Results

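The genes described here are 32 components of the autophagy machinery, taken by symbol from a liver count table of 40324 distinct symbols. All 32 were found in the table, and all 32 were among the 14476 genes with enough reads to be tested. The table holds RNA sequencing counts of 16 livers from db/db mice, a strain whose leptin receptor gene is defective and which grows obese and diabetic. The 8 arcA livers came from mice given an adeno-associated virus of serotype AAV8 that encodes arcA, and the 8 GFP livers from mice given AAV8 encoding GFP, a fluorescent protein. Both groups were littermate db/db mice, injected at about 5 weeks of age and 10 weeks old at collection, 5 weeks after the virus. The labels do not say which promoter drives either transgene or what arcA encodes. Transgene expression was not analysed here.

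Autophagy encloses cytoplasm, proteins or organelles in a double membrane, the autophagosome, and delivers them to the lysosome for breakdown. In the liver it supplies amino acids and fuel during fasting and removes damaged mitochondria, and it is held back by insulin and by amino acids through the kinase mTOR. A kinase complex (ULK) starts the process, a lipid kinase complex marks the membrane, transfer proteins supply lipid, enzymes akin to those of ubiquitin conjugation attach LC3 and GABARAP proteins to the membrane, and receptors tie the cargo to them. Much of this control acts on proteins and their turnover, which transcript levels do not show.

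Libraries held 37325610 to 45874797 counts in the arcA group and 28912563 to 53520828 in the GFP group. In GFP 2, 3 and 5 a single transcript that lies over ribosomal RNA, Gm42418, held 11.8%, 18.1% and 19.4% of counts, and in any arcA library at most 7.37%. All 8 hepatocyte markers were present, with summed levels of 67515 to 93148 CPM (gene counts relative to the effective library size) in arcA livers and 69971 to 82378 CPM in GFP livers, and 0 of the 8 passed the test described below (edgeR, 4 at an unadjusted p under 0.05). The median of these sums was 82967 CPM in arcA livers and 73533 CPM in GFP livers, and the median log2 fold change of the 8 markers was 0.19, a size near that of the largest member changes below. Immune markers differed far more. All 7 T and NK cell markers were lower in arcA livers, with sums of 0.535 to 2.20 CPM against 6.50 to 13.8 CPM in GFP livers. Of 8 Kupffer cell and macrophage markers 4 were lower, with sums of 69.8 to 232 CPM in arcA livers and 156 to 247 CPM in GFP livers. Lower calls were also made for 4 of 6 lipid-associated macrophage, 4 of 4 tested B and plasma cell, 5 of 6 stellate cell and 1 of 5 endothelial markers. No marker was at 0 in every library. Fewer cells of a type and less RNA per cell cannot be told apart in bulk tissue. The part of these cells, and of the hepatocyte marker shift, in the autophagy values was not tested. The fits scaled on hepatocyte markers only change the scaling of each library and cannot separate that part.

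The autophagy transcripts differed little between the groups. Of the 32 genes, 2 rose in arcA livers, Atg9a and Ulk2, and 0 fell (edgeR quasi-likelihood test, Benjamini-Hochberg adjusted p under 0.05 over all genes). Over all genes tested, 4.26% were called higher and 6.57% lower, so a rise in 6.25% of the members is near the background. At an unadjusted p under 0.05, 5 members were higher (15.6%) and 1 was lower (3.1%), beside 12.3% and 12.6% of all genes. DESeq2 and limma voom also called 0 members lower. All members had a mean above 10 CPM. Of the 7117 genes with a mean of at least 10 CPM, edgeR called 7.31% higher and 2.81% lower. At an unadjusted p under 0.05 these shares were 19.5% and 6.83%. In 0 of the 32 did the groups separate without overlap, against 0.566% of all genes for higher and 1.2% for lower arcA values. The log2 fold changes of the members, arcA over GFP, ran from -0.21 (Uvrag) to 0.25 (Atg9a). Their median was 0.048, against 0.0091 over all genes and 0.037 over those with a mean of at least 10 CPM. The lowest limit of their 95% intervals was -0.39 (Uvrag) and the highest 0.38 (Atg9a), which are folds of 0.763 and 1.30. All 32 intervals lay within 0.5 of zero on the log2 scale, as did 65.4% of those of all tested genes and 90.9% of those of the 7117 genes with a mean of at least 10 CPM. That bound was chosen after the values were seen.

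**Figure D1:**
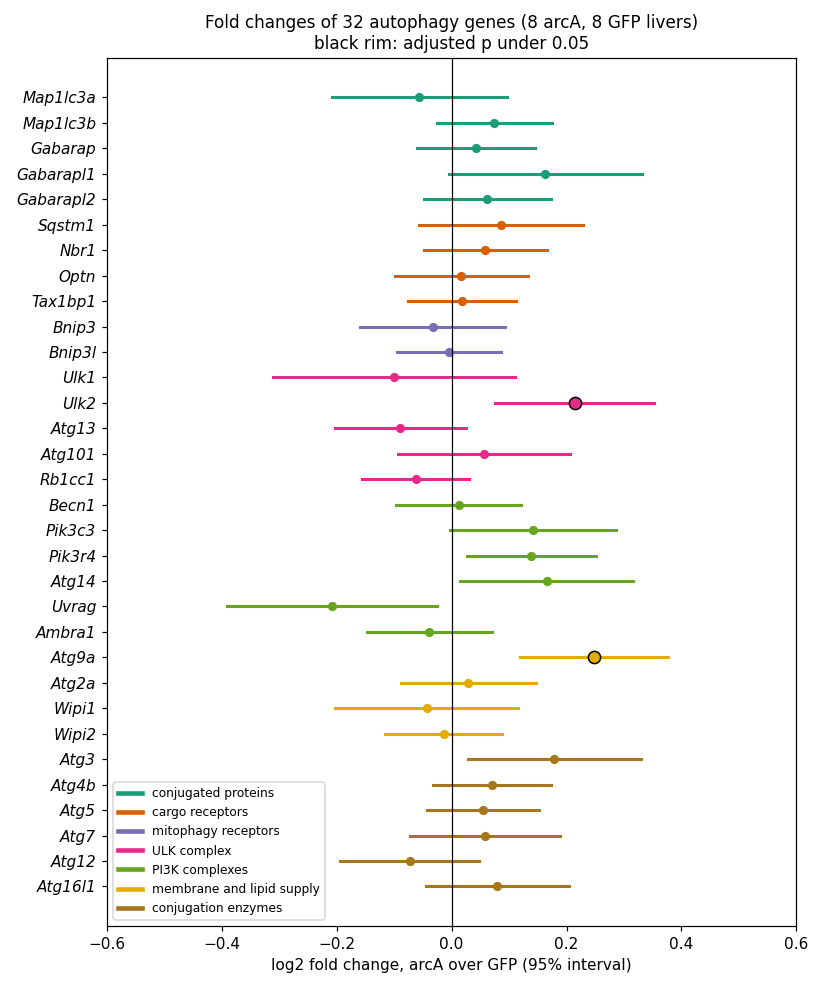
Log2 fold change of each of the 32 autophagy genes (x axis, arcA over GFP, 8 livers a group) with its 95% interval, coloured by role. Points with a black rim, Atg9a and Ulk2, passed an adjusted p of 0.05, and the intervals of the other genes lie between -0.39 and 0.33.

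The promoters were read to see whether members that carry the element of TFEB, the transcription factor of lysosome and autophagy genes, stand together. A RefSeq promoter of GRCm38.p6, from 250 bases before to 50 after the start, was matched for 25 of the 32 members. The E-box CACGTG, which reads the same on both strands, was in 5 of the 25, namely Atg3, Atg5, Atg7, Atg14 and Bnip3, and in 8.09% of the 27025 genes with a promoter. Its longer form TCACGTGA, the core of the CLEAR element that TFEB binds, was in Atg3 and in 1.12% of genes. The FOXO core GTAAACA and the ATF4 element TGATGNAAN, searched on both strands, were in 0 of 25, against 4.05% and 4.50% of genes. The hypoxia response core ACGTG, which every CACGTG contains, was in 13 of 25, among them Atg9a and Bnip3, and in 21.8% of genes. The stretches below show the E-boxes in capitals with up to 20 bases on each side, 5′ to 3′ on the gene's strand, at chr16:45158715-45158783 (+), chr10:44268305-44268338 (+), chr6:114670944-114670989 (+) and chr7:138909589-138909634 (-). The box of Atg14 spans the RefSeq start and is not printed. For Atg7 and Atg14 the window lies inside the gene as GENCODE annotates it, at chr6:114670846-114671145 and chr14:47568385-47568684. GENCODE starts these genes at 114643097 (+) and 47570649 (-), so the boxes belong to internal starts.
Atg3: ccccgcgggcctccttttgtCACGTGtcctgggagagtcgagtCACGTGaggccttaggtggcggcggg
Atg5: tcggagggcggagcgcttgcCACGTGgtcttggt
Atg7: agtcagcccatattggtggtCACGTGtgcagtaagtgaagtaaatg
Bnip3: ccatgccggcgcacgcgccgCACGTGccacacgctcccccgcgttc
Atg3 holds the motif at a pair of places. The log2 fold changes of these 5 genes were 0.18 (Atg3), 0.17 (Atg14), 0.058 (Atg7), 0.054 (Atg5) and -0.033 (Bnip3), and 0 of the 5 passed the test. With 10.8% of all genes called, 0 of 5 says little. Neither Atg9a nor Ulk2 had the E-box in this window. The shares given for genes cover all 27025 with a promoter, whatever their level in liver, while all members were expressed. A match describes the letters only.

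The members spanned a wide range of levels. Per kilobase of merged exons, Gabarapl1 was the highest at 134 CPM in arcA livers and 119 CPM in GFP livers, followed by Sqstm1 (129 and 121) and Gabarap (113 and 110). Bnip3 came next with 60.3 CPM per kilobase in arcA livers and 61.7 in GFP livers. The lowest was Pik3r4, with 1.83 CPM per kilobase in arcA livers and 1.66 in GFP livers. Uvrag and Rb1cc1 stood next to it, with 2.27 and 2.31 in arcA livers. Merged exon length counts the exons of every annotated transcript. Genes with a long merged length, such as Atg12 with 7711 bases, may therefore appear lower than their main transcript would. The spread between livers was small, with a median coefficient of variation over the members of 7.40% in arcA livers and 8.26% in GFP livers, against 13.2% and 14.3% over all tested genes and 8.74% and 9.14% over genes with a mean of at least 10 CPM.

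**Figure D2:**
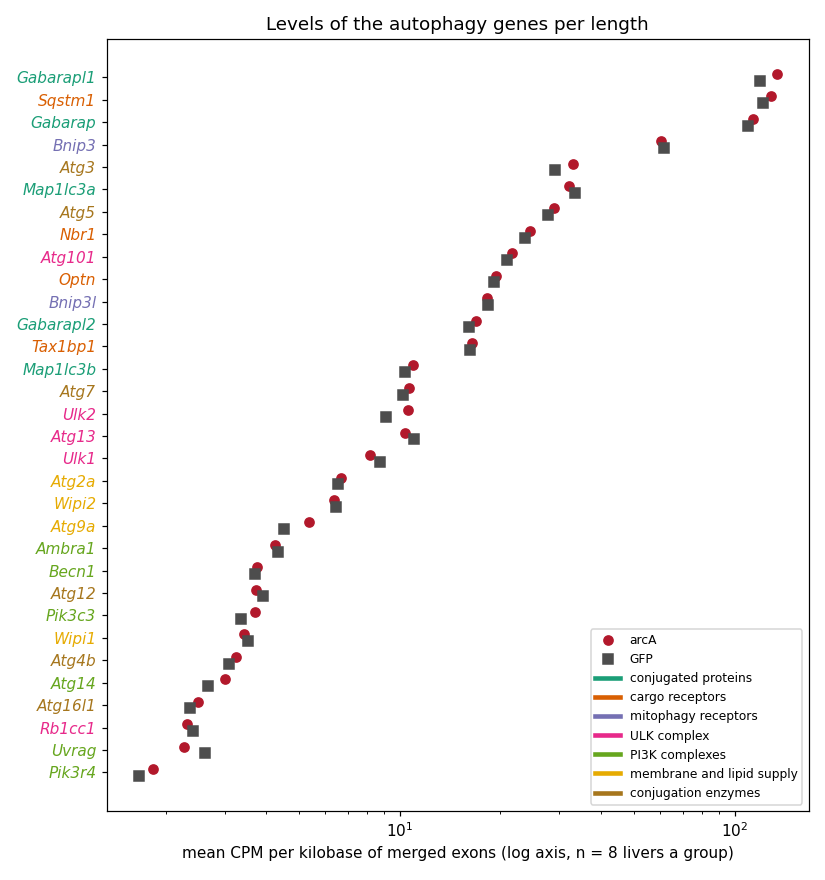
Mean level per kilobase of merged exons (log axis) of each autophagy gene, with arcA livers as circles and GFP livers as squares, sorted by the arcA value and with names coloured by role. Gabarapl1, Sqstm1 and Gabarap exceed 100 CPM per kilobase in both groups, and the symbols of the groups lie close together for every gene.

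In the ULK complex, Ulk2, a kinase that starts autophagosome formation, rose. It had 56.7 to 76.6 CPM in arcA livers (median 60.8), against 47.2 to 62.6 CPM in GFP livers (median 54.8). All 8 arcA livers lay above the GFP median, and the groups overlapped through GFP 1, the highest GFP liver. The means were 63.1 ± 6.97 CPM in arcA livers and 54.4 ± 4.64 CPM in GFP livers (SD, n = 8 each), a log2 fold change of 0.21 (SE 0.066, edgeR adjusted p = 0.0421). This call lies close to the threshold: it was lost in 13 of the 16 fits without a single library (adjusted p up to 0.0994), and held without arcA 3, arcA 6 or GFP 1. It was also lost without GFP 2, 3 and 5 (0.19, adjusted p = 0.174), without arcA 3 and 8 (0.18, adjusted p = 0.0685), with upper-quartile scaling (adjusted p = 0.0602), with library size as the sole scaling (0.204), with hepatocyte-marker scaling (0.462) and with a filter of 1 CPM in 8 libraries (0.0709).

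Ulk1, the better known of the paired kinases, did not follow Ulk2. It had 38.0 to 69.7 CPM in arcA livers (median 50.7) and 51.3 to 64.8 CPM in GFP livers (median 56.1), with a log2 fold change of -0.100 (adjusted p = 0.597). The arcA livers were the more scattered, with 5 of 8 below every GFP liver and 2, arcA 6 and 8 at 67.1 and 69.7 CPM, above every GFP liver. Their coefficient of variation for Ulk1, 19.97%, was the highest of the 32 members in either group. Because a share of 2 genes in the same library does not depend on scaling, the share of Ulk2 in the summed length-corrected level of both kinases was also compared. It was 56.6% ± 4.47 in arcA livers and 51.0% ± 3.46 in GFP livers (SD, n = 8 each), and 6 of 8 arcA livers lay above every GFP liver. The difference of 5.65 percentage points had a two-sided exact permutation p of 0.0132, and of 0.0925 adjusted over the 7 family shares compared, so it did not pass. Without a single library it was 4.65 to 6.90 points and did not pass in 15 of 16 fits (permutation test, adjusted p up to 0.190). It passed only without arcA 6, at 6.90 points (adjusted p = 0.00435). Exon lengths enter the size of these shares.

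The partners of the kinases gave 0 calls, which says little for so few genes when 10.8% of all genes were called. Atg13, the regulatory subunit, had 42.5 to 50.02 CPM in arcA livers and 40.3 to 51.4 CPM in GFP livers, with 7 of 8 arcA livers below the GFP median (log2 fold change -0.089, adjusted p = 0.333). Rb1cc1, which encodes the scaffold FIP200, had a log2 fold change of -0.062 (adjusted p = 0.426), and Atg101, which stabilises Atg13, of 0.056 (adjusted p = 0.696).

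**Figure D3:**
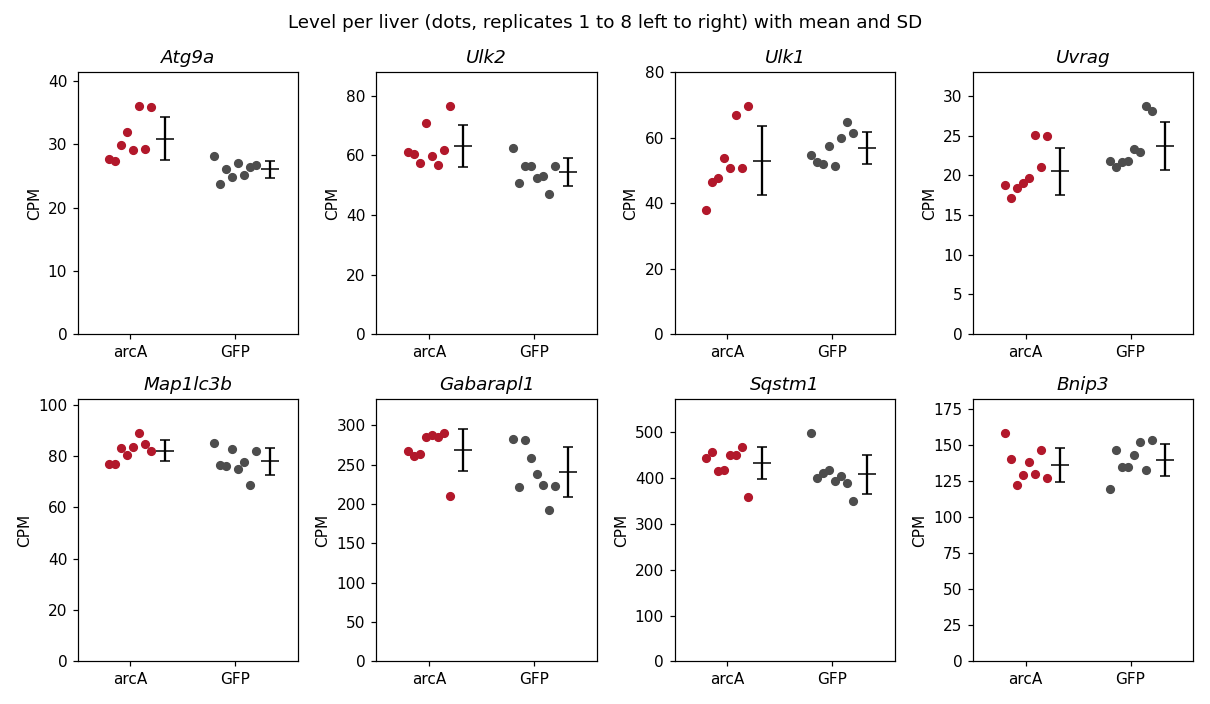
Level in CPM of 8 autophagy genes in each liver (dots, replicates 1 to 8 of each group from left to right), with the mean and SD beside them and axes from 0. Atg9a and Ulk2 sit higher in arcA livers with a small overlap, Ulk1 and Uvrag are lower in most arcA livers but not in arcA 6 and 8, and the other 4 genes overlap broadly.

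Among the genes that bring membrane and lipid, Atg9a had the largest change of all members. It encodes the scramblase of the vesicles that seed the autophagosome, and lies on chromosome 1 (75180860 to 75192196, GRCm38, minus strand). It had 27.3 to 36.0 CPM in arcA livers (median 29.5), against 23.7 to 28.2 CPM in GFP livers (median 26.3). Of the 8 arcA livers 6 lay above every GFP liver, led by arcA 6 and 8 with 36.0 and 35.8 CPM, and the other 2 lay just below GFP 1, the highest GFP liver. The means were 30.9 ± 3.42 CPM in arcA livers and 26.0 ± 1.41 CPM in GFP livers (SD, n = 8 each), a log2 fold change of 0.25 (SE 0.062, edgeR adjusted p = 0.0130), or 1.19-fold. The call held in all 16 fits without a single library, with fold changes of 0.20 (without arcA 6) to 0.27 and adjusted p up to 0.0364. Without GFP 2, 3 and 5 the fold change was 0.23, almost as large, with an adjusted p of 0.0708. The call was also lost with scaling by library size alone (0.23, adjusted p = 0.110) and on hepatocyte markers (0.16, adjusted p = 0.400). Ankzf1, on the opposite strand, overlaps 46 bases of the Atg9a exons, 0.798% of their length. On the same strand, the non-coding transcript Gm29253 overlaps 1832 bases, 31.8% of the exons, and held 0 counts beside 18425 of Atg9a.

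Atg2a, which carries lipid from the endoplasmic reticulum to the growing membrane, had 51.3 ± 4.80 CPM in arcA livers and 50.3 ± 3.01 CPM in GFP livers (log2 fold change 0.029, adjusted p = 0.817). Wipi1 and Wipi2, which read the lipid mark on that membrane, differed by -0.044 and -0.014 on the log2 scale (adjusted p = 0.788 and 0.904).

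**Figure D4:**
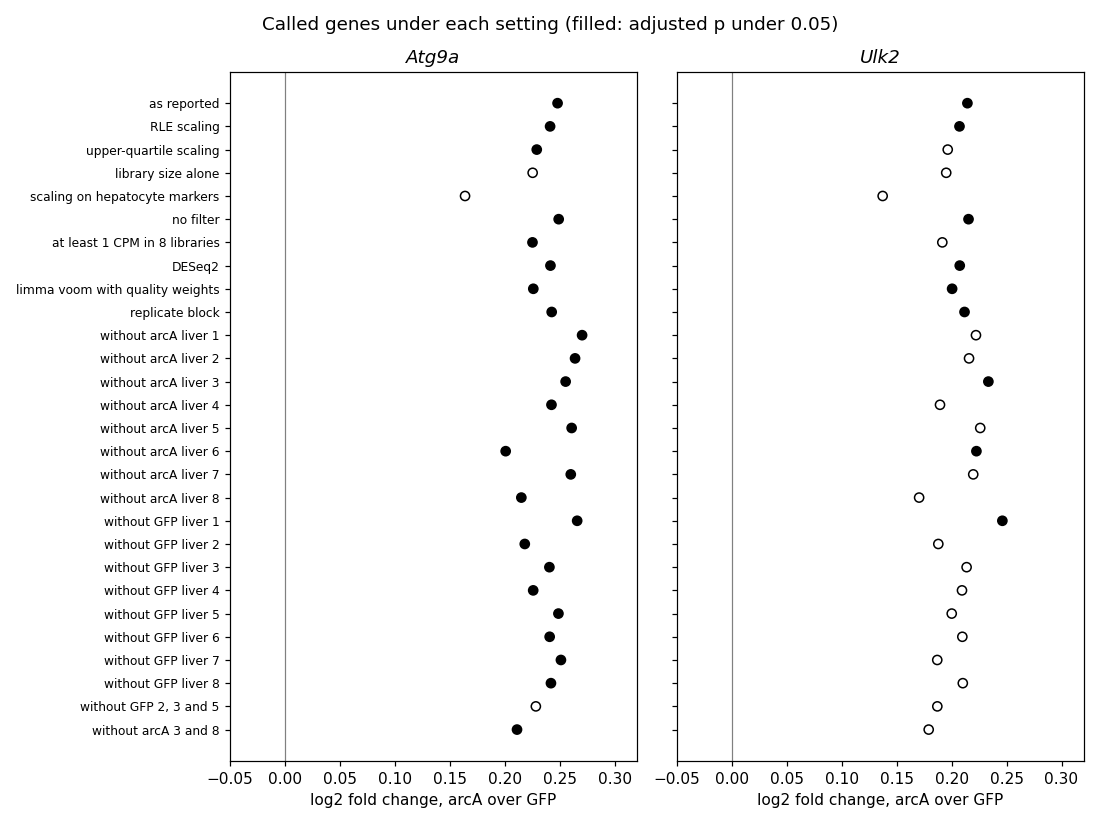
Log2 fold change of Atg9a (left) and Ulk2 (right) as reported and under each of 27 other settings, one per row, with filled points where the adjusted p was under 0.05. Every value is above 0, Atg9a loses its call in 3 settings, and Ulk2 loses it in most fits that leave out a library.

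Of the 6 genes of the lipid kinase complexes 0 passed with edgeR, and 3 had an unadjusted p under 0.05. Of these, Pik3r4 and Atg14 were higher and Uvrag was lower in arcA livers. The shares over all genes were 10.8% and 24.9%, so 3 of 6 says little about this group. Pik3c3, the catalytic subunit VPS34, had 16.5 ± 1.28 CPM in arcA livers and 14.97 ± 1.61 CPM in GFP livers (log2 fold change 0.14, adjusted p = 0.211). Pik3r4, its scaffold, had 17.0 to 18.7 CPM in arcA livers, against 13.5 to 18.3 CPM in GFP livers. All 8 arcA livers and a single GFP liver lay above 17, but the fold change of 0.14 did not pass (adjusted p = 0.105). Atg14, which directs the complex to autophagosome formation, had 10.95 to 15.5 CPM in arcA livers and 10.2 to 13.1 CPM in GFP livers (0.17, adjusted p = 0.154). Uvrag, which replaces Atg14 in the complex that works on endosomes, pointed the other way. It had 17.2 to 25.1 CPM in arcA livers and 21.0 to 28.7 CPM in GFP livers, with 5 of 8 arcA livers below every GFP liver (-0.21, 95% interval -0.39 to -0.025, adjusted p = 0.140). Stretches of Uvrag of about 344 bases match transcripts of Mettl6, Klhl20 and Txndc16 at 95% identity or more, so its counts are uncertain to the extent that such reads were shared. Becn1, the Beclin 1 subunit shared by both forms, was at 26.4 ± 1.95 CPM in arcA livers and 26.2 ± 1.47 CPM in GFP livers (0.012, adjusted p = 0.919). Ambra1, a Beclin 1 regulator, had a log2 fold change of -0.039 (adjusted p = 0.713).

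The conjugation enzymes attach LC3 and GABARAP proteins to membrane lipid. Atg3, the enzyme that makes the last transfer, had 93.7 to 112 CPM in arcA livers (median 107), against 71.3 to 104 CPM in GFP livers (median 95.5). Of the 8 arcA livers 5 lay above every GFP liver, and its fold change was 0.18 (95% interval 0.028 to 0.33, adjusted p = 0.123). The others were closer: 0.079 for Atg16l1, which places the reaction on the membrane, 0.070 for the protease Atg4b, 0.058 for the activating enzyme Atg7 and 0.054 for Atg5 (adjusted p from 0.412 to 0.629). Atg12, which is joined to Atg5, had 25.6 to 32.5 CPM in arcA livers and 25.9 to 34.2 CPM in GFP livers, with 7 of 8 arcA livers below the GFP median (-0.073, adjusted p = 0.479).

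The conjugated proteins themselves gave 0 calls among 5 with edgeR, with 0 at an unadjusted p under 0.05. Beside 10.8% and 24.9% of all genes, 0 of 5 says little about this group. Gabarapl1, the most abundant, had 209.9 to 289.8 CPM in arcA livers (median 276), against 193 to 283 CPM in GFP livers (median 231). Its fold change was 0.16 (95% interval -0.0051 to 0.33, adjusted p = 0.216). Of the 8 arcA livers 7 lay between 261 and 289.8 CPM and arcA 8 lay apart at 209.9, and without arcA 8 the fold change was 0.21 (adjusted p = 0.0710). Map1lc3b, whose LC3B protein is the usual marker of autophagosomes, had 77.0 to 88.9 CPM in arcA livers (median 82.6) and 68.9 to 85.3 CPM in GFP livers (median 77.1), with 7 of 8 arcA livers above the GFP median (0.075, 95% interval -0.025 to 0.17, adjusted p = 0.361). Map1lc3a had 34.3 to 42.3 CPM in arcA livers and 34.8 to 51.1 CPM in GFP livers (-0.056, adjusted p = 0.700). Gabarap and Gabarapl2 had fold changes of 0.042 and 0.062 (adjusted p = 0.660 and 0.518). The processed pseudogenes Gm3724, Gm5829 and Gm6051 match Gabarapl2 at 96.6% identity or more. Gm5829 held 229 counts beside 24700 of Gabarapl2, and the others are not among the symbols counted. Its counts are therefore uncertain to the extent that such reads were shared. By length-corrected level Gabarapl1 made up 43.5% ± 2.45 of the 5 genes in arcA livers and 41.1% ± 2.49 in GFP livers, and Map1lc3a 10.5% ± 0.527 and 11.5% ± 1.34 (SD, n = 8 each). Neither difference passed a two-sided exact permutation test adjusted over 7 shares (adjusted p = 0.179 for each). Map1lc3b, the marker gene, was the smallest share, 3.58% in arcA livers and 3.60% in GFP livers. Its merged exons of 7517 bases fill most of the gene's span (chromosome 8, 121590361 to 121598760). That length lowers its share, so the rank may not hold for its main transcript.

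Of the 4 cargo receptors 0 passed, with 0 at an unadjusted p under 0.05. The shares over all genes were 10.8% and 24.9%, so 0 of 4 says little about this group. Sqstm1, which encodes p62, the receptor for ubiquitinated protein, had 357 to 468 CPM in arcA livers (median 446), against 349.7 to 497 CPM in GFP livers (median 402). The groups overlapped over almost their whole range, with GFP 1 the highest of all 16 and GFP 8 the lowest (log2 fold change 0.086, 95% interval -0.057 to 0.23, adjusted p = 0.484). Without GFP 1 the fold change was 0.13 (adjusted p = 0.192). Nbr1, a receptor related to p62, had 169 ± 7.78 CPM in arcA livers and 162 ± 12.1 CPM in GFP livers (0.058, adjusted p = 0.529). Optn and Tax1bp1, receptors for ubiquitin-coated cargo that include mitochondria and protein aggregates, had fold changes of 0.017 and 0.018 (adjusted p = 0.895 and 0.861), with signs that turned under other scalings.

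The mitophagy receptors Bnip3 and Bnip3l (NIX), which mark mitochondria for removal and are known as hypoxia targets, stayed within narrow limits. Bnip3 had 122 to 158 CPM in arcA livers and 119.6 to 154 CPM in GFP livers (-0.033, 95% interval -0.16 to 0.094, adjusted p = 0.799). Bnip3l had 67.2 to 74.6 CPM in arcA livers and 63.7 to 75.5 CPM in GFP livers (-0.0046, 95% interval -0.094 to 0.085, adjusted p = 0.965). Bnip3l had the smallest fold change of all members. Both genes have near-identical pseudogenes. Gm16439, which matches Bnip3 at 98.9% over 564 bases, held 6233 counts beside 88696 of Bnip3, and Bnip3l-ps 1826 beside 45387 of Bnip3l. The transcripts AC160336.1, Gm45507, Gm6532 and Gm9419 also match Bnip3 at 95% identity or more, but are not among the symbols counted. The split of reads is therefore uncertain, to an extent that these counts do not bound. On the opposite strand, Mrnip overlaps 17.3% of the Sqstm1 exons with 1735 counts beside 270521, and Cntd1 overlaps 43.9% of the Becn1 exons with 15 counts beside 16966.

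Members with related roles were also compared liver by liver. Of 10 relations (5 pairs of genes in each group, 8 livers each), 0 passed a two-sided exact permutation test after Benjamini-Hochberg adjustment, and 1 had an unadjusted p under 0.05. That was Atg5 with Atg12, whose proteins form a conjugate, in arcA livers (Pearson's r = 0.852, exact p = 0.00821, adjusted p = 0.0821; Spearman's rho = 0.810, exact p = 0.0218, adjusted p = 0.218). Without arcA 1 and 3, the livers farthest from the median of Atg5, r was 0.521 (exact p = 0.304, n = 6). Without any single liver r was 0.722 to 0.916, and it passed without arcA 5 (adjusted p = 0.00992). In GFP livers r was 0.152 (exact p = 0.734, adjusted p = 0.815). Map1lc3b with Sqstm1 had r = 0.0598 in arcA livers and 0.407 in GFP livers (exact p = 0.883 and 0.301, adjusted p = 0.883 and 0.645), and Ulk1 with Ulk2 had r = 0.401 in arcA livers and -0.321 in GFP livers (exact p = 0.323 and 0.442, adjusted p = 0.645 for each). The Ulk1 and Ulk2 value in GFP livers turned to 0.624 with scaling by library size alone.

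A list of 75 other genes of the pathway was read from the same fit, of which 73 were tested. Of these 3 rose (4.11%) and 0 fell with edgeR, beside 4.26% higher and 6.57% lower over all genes. At an unadjusted p under 0.05, 7 were higher (9.59%) and 4 lower (5.48%), beside 12.3% and 12.6% of all genes. Among the 7117 genes with a mean of at least 10 CPM, a level that not all 73 reach, edgeR called 7.31% higher and 2.81% lower. Their shares at an unadjusted p under 0.05 were 19.5% and 6.83%. DESeq2 called 4 higher and 2 lower, beside 780 and 1255 of the 14476 genes tested. The median log2 fold change of the 73 genes was 0.0038. Both nutrient sensors that rose act upstream of mTOR. Tsc1, part of the complex that restrains mTOR, had 20.8 to 28.5 CPM in arcA livers, against 18.2 to 22.5 CPM in GFP livers, with 5 of 8 arcA livers above every GFP liver. Its log2 fold change was 0.28 (SE 0.071, adjusted p = 0.0138), and the call was lost with scaling on hepatocyte markers (0.20, adjusted p = 0.299). Stk11, the kinase LKB1 that activates the energy sensor AMPK, had 67.1 to 76.6 CPM in arcA livers and 63.5 to 70.9 CPM in GFP livers (0.14, SE 0.042, adjusted p = 0.0420), with all 8 arcA livers above the GFP median. The Stk11 call was lost in 11 of 16 fits without a single library (it held without arcA 1, 2 or 8 and without GFP 1 or 5), with each other edgeR scaling and filter, without GFP 2, 3 and 5 (adjusted p = 0.141) and without arcA 3 and 8 (0.0674).

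Tex264, a receptor for the endoplasmic reticulum, had 98.9 to 116 CPM in arcA livers and 90.4 to 101 CPM in GFP livers, with 7 of 8 arcA livers above every GFP liver (0.17, SE 0.043, adjusted p = 0.0166). That call did not hold without GFP 2 (adjusted p = 0.0526), without GFP 2, 3 and 5 (0.0625), or with library-size or hepatocyte-marker scaling. Pink1, which flags damaged mitochondria, had 198 to 248 CPM in arcA livers and 193 to 224 CPM in GFP livers (0.15, adjusted p = 0.0684), and passed with DESeq2 (adjusted p = 0.0354) and with limma voom. Rptor, which recruits substrates to mTOR, had a fold change of 0.12 (adjusted p = 0.124).

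On the lower side, Tfec, a relative of TFEB known from macrophages, had 0.394 to 1.08 CPM in arcA livers and 0.851 to 1.80 CPM in GFP livers (-0.63, SE 0.21, adjusted p = 0.0604). Rragd, a GTPase that carries amino acid signals to mTOR, had 0.419 to 1.20 CPM in arcA livers and 0.680 to 1.78 CPM in GFP livers (-0.64, SE 0.22, adjusted p = 0.0684). Both passed with DESeq2 (adjusted p = 0.0257 and 0.0345). These genes lie near 1 CPM, and all 8 arcA livers were below the GFP median for each; the sums of the 8 macrophage markers are given above, and their part here was not tested. Tfeb itself, named after its values were seen, had 8.96 to 12.4 CPM in arcA livers and 8.80 to 13.6 CPM in GFP livers (-0.068, adjusted p = 0.668). Of the 11 transcriptional regulators and the 13 genes of autophagosome fusion, 0 passed in either direction with edgeR, with 2 and 0 at an unadjusted p under 0.05, and DESeq2 called 1 regulator, Tfec. Over all genes edgeR called 10.8%, and 24.9% had an unadjusted p under 0.05.

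Scaling decided how the calls over all genes divided. With TMM factors 39.3% of the calls were rises, with library size alone 24.0% and with scaling on hepatocyte markers 9.12%. Scaling on hepatocyte markers put the median log2 fold change of all genes at -0.080 and that of the 32 members at -0.046, and 7 members then had a fold change above 0, against 21 with TMM factors.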

How the data were processed

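The deposited file holds raw read counts per gene symbol. Per the submitters' processing notes, the authors used bcl2fastq, STAR 2.5.1a and featureCounts 1.4.6-p5 on GRCm38. No annotation, strand setting or handling of mates was stated per the labels; 69.8% of counts from 1 to 20 were even. Of 40757 lines, 348 exact copies were removed and 85 repeated symbols summed. Counts were fitted with edgeR 4.0.16 (R 4.3.3; TMM, filterByExpr, robust quasi-likelihood F test, group only) and adjusted by Benjamini-Hochberg, threshold 0.05; intervals are 95% and unadjusted. Log2 CPM used a prior count of 2. DESeq2 1.42.0 and limma 3.58.1 were alternatives. Positions and merged exons are from GENCODE M21, copies from alignment of its transcripts (at least 95% identity over 300 bases), promoters from RefSeq. The pipeline was tested on simulated data with a single dispersion and changes larger than that of any member. That test does not cover changes as small as those of the members. All members are named, and other pathway genes if called or among the 4 next by p. Members and lists were chosen with earlier results of these data known; family shares were added after seeing the data. The labels number livers but tie none to a mouse. Each sample was taken as a separate unit, and p-values weigh the group difference against the spread between these samples.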

Additional observations from a re-analysis of the deposited data

Results flagged for a closer look

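Of 64 sets of 8 values (32 genes in each group), 4 held a liver whose gap to its neighbour was large for the group's range by Dixon's 95% criterion, which chance meets in about 1 of 20 sets. Gabarapl1 was at 209.9 CPM in arcA 8, with the next arcA liver at 261 CPM. Sqstm1 was at 357 CPM in arcA 8, next to 416 CPM, and at 497 CPM in GFP 1, next to 417 CPM. Gabarap was at 223 CPM in GFP 3, next to 207 CPM.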

How the results depend on the processing

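Over 27 settings, 864 fold changes of members were recomputed: 793 kept their sign and their side of the threshold, 22 (Atg9a and Ulk2) lost the call, 1 gained it and 48, of 18 members, changed sign, with sizes of at most 0.074 afterwards. Members called were 1 with upper-quartile scaling, with 1 CPM in 8 libraries and without arcA 3 and 8, and 0 with library size alone, on hepatocyte markers and without GFP 2, 3 and 5 (4, 1 and 5 at an unadjusted p under 0.05), and 1 to 2 without a single library. Other pathway genes called were 6 with DESeq2, 1 with library size alone and without GFP 2, 3 and 5, 0 on hepatocyte markers (5 at an unadjusted p under 0.05), and 2 to 5 without a single library. Scaling on hepatocyte markers called 998 of all genes, and without a single library 1143 to 1684 were called. Relations called were 0 to 1 without a single liver, and 1 without GFP 2, 3 and 5, which leaves only arcA relations. Signs turned with upper-quartile scaling for Becn1 (-0.0057), Optn (-0.0017) and Tax1bp1 (-0.00057), with library size alone for the same genes (-0.010, -0.013 and -0.010) and with 1 CPM in 8 libraries (-0.011, -0.0061 and -0.0051). On hepatocyte markers they turned for Atg101 (-0.044), Atg16l1 (-0.012), Atg2a (-0.059), Atg4b (-0.021), Atg5 (-0.033), Atg7 (-0.028), Becn1 (-0.074), Gabarap (-0.047), Gabarapl2 (-0.021), Map1lc3b (-0.0063), Nbr1 (-0.019), Optn (-0.073), Sqstm1 (-0.0028) and Tax1bp1 (-0.070). Becn1 turned with limma voom (-0.017). Without GFP 2, 3 and 5 Optn (-0.056), Tax1bp1 (-0.029) and Wipi2 (0.0031) turned, and without arcA 3 and 8 Becn1 (-0.014), Bnip3 (0.0028), the r of Ulk1 with Ulk2 in arcA livers (-0.159) and the Bnip3 share (0.141 points); the r in GFP livers was 0.624 with library size alone. Without a single library the range crossed 0 for Atg2a (-0.022 to 0.050), Becn1 (-0.0059 to 0.039), Bnip3l (-0.026 to 0.0056), Map1lc3a (-0.091 to 0.0070), Optn (-0.026 to 0.032), Tax1bp1 (-0.0042 to 0.034), Wipi2 (-0.035 to 0.0063), the Map1lc3b share (-0.0957 to 0.0342 points), and the r of Atg5 with Atg12 in GFP livers (-0.0242 to 0.402), of Map1lc3b with Sqstm1 in arcA (-0.0914 to 0.256) and GFP livers (-0.109 to 0.798), and of Ulk1 with Ulk2 in arcA (-0.102 to 0.768) and GFP livers (-0.483 to 0.167). The cause was not tested. Same-numbered livers deviated together weakly (r from -0.040 to 0.13, 2 of 8 arcA livers best with their own number). These values do not settle whether the numbers pair the livers, and the fits reported above treat them as unpaired. With the replicate block 3 members (Uvrag added, -0.21, adjusted p = 0.0412), 2 other pathway genes (Stk11 lost, adjusted p = 0.0893) and 1468 genes were called. A gene that was not called may still differ by any amount within its interval at this depth and number of livers.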
